A study of Rattus norvegicus with 16 samples.

Results

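Livers of weanling male rats (Sprague-Dawley) whose dams had received a mixture of environmental contaminants were compared with those of unexposed pups, all nursed by their own dams, by the level of messenger RNA across the whole array. The 4 arrays labelled M and the 4 labelled C were chosen by their titles, and make up 8 of the 16 arrays of the series. C pups came from dams given corn oil. M pups came from dams given organochlorine pesticides, polychlorinated biphenyls (PCBs) and methylmercury in corn oil at a total of 1 mg per kg per day from gestation day 0 to postnatal day 20. Livers were taken at 21 days of age, after dosing of the dams through pregnancy and nursing. Each group held 8 male pups, and each array carried the pooled RNA of 2 of them. The labels do not give the litter of a pup, so the p-values measure only the spread between pools. The other 8 arrays held cross-fostered pups without (CC) and with (MM) the mixture, and they are used here for the estimate of the spread and as a second comparison.

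Weanling liver meets foreign chemicals with a few ligand-sensing transcription factors. The aryl hydrocarbon receptor (AhR) binds planar compounds such as dioxin-like PCBs and, with its partner Arnt, switches on Cyp1a1, Cyp1a2, Cyp1b1, Nqo1 and Ugt1a6 through xenobiotic response elements. The constitutive androstane receptor (CAR) and the pregnane X receptor (PXR) respond to phenobarbital-type inducers, among them bulky PCBs and organochlorine pesticides, and raise cytochromes P450 of the Cyp2b, Cyp2c and Cyp3a families. Nrf2 is held in check by Keap1 until electrophiles such as methylmercury release it, and it drives antioxidant and conjugation genes. Oxidised chemicals are then coupled to glutathione, glucuronic acid or sulfate and exported.

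Both slides carried the same design of spots, but every C array lay on 1 slide and every M array on the other, so mixture and slide cannot be told apart from the arrangement of the arrays. Cy5 held the liver RNA and Cy3 an Agilent universal reference RNA pooled from rat cell lines, the same on every array. A log2 ratio of Cy5 over Cy3 is therefore given with Cy5 alone and Cy3 alone, as log2 values of background-corrected intensities made comparable between arrays by quantile normalization. Of 12072 genes or identifiers tested, limma called 8.19% higher and 12.3% lower in M than in C by the ratio, with Benjamini-Hochberg adjusted p-values held to 0.05. Cy5 by itself gave 1.62% higher and 0.605% lower. In Cy3 alone, which held no pup RNA, 66.2% were called. Of Cy5 calls 72.9% were higher (87.3% of the 79 called after median centring in place of quantile normalization), and of ratio calls 40.0%. The results below turn on genes called in the same direction in the ratio and in Cy5 alone, which were 0.936% of genes higher in M (113) and 0.29% lower (35). A gene could be tested when it was well above background in only 1 of the groups, CC and MM included. Below, a gene tested only through M is one for which M met this filter and C did not, whatever CC and MM showed. Of the 113, 24 were well above background on fewer than 3 C arrays (17 on none). Of the 35, 1 was so on fewer than 3 M arrays. The balance of the 2 counts is partly set by that filter. Of these 148 genes, 103 had a symbol and 117 had a Cy3 difference within 0.25 on the log2 scale. On the 8 arrays, 48.3% to 53.9% of spots stood well above background in the liver channel, and no spot was saturated. All 10 hepatocyte markers fixed for the label, such as the albumin gene Alb and the transferrin gene Tf, were well above background on all 8 arrays.

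The 113 genes higher in M were led by xenobiotic-metabolising enzymes. The 5 lists on this theme cover AhR targets, CAR and PXR targets, glutathione transferases, glucuronosyl- and sulfotransferases, and Nrf2 targets. Together they held 72 tested genes, of which 26 were higher in both channels (36.1%, against 0.936% of all genes) and 0 were lower in both. Of the 26, 3 were well above background on fewer than 3 C arrays, and the other 23 were among the 68 members well above background on at least 3 C arrays. The median rise of the 113 genes was 0.62 on the log2 scale of the ratio, and 26 of them rose at least 2-fold. In 102 of the 113 the 4 M arrays lay above the 4 C arrays in both the ratio and Cy5. The calls were made on these same values, so the selection largely set that count. All 148 genes called in both channels kept their direction within each of the 2 array rows of the slides. Each row holds some of the same arrays that made the calls, so the selection largely set this outcome. Calls in both channels held with each of the 8 arrays left out in turn for 64 of the 113 and 7 of the 35. Without C 9 the counts were 74 higher and 12 lower. The lower count was also below 35 by over 1.5 times without M 5 (14), C 12 (20), M 6 (21), C 10 (23) or M 8 (23). In bulk liver, more RNA per cell and more cells of a type cannot be told apart.

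**Figure D1:**
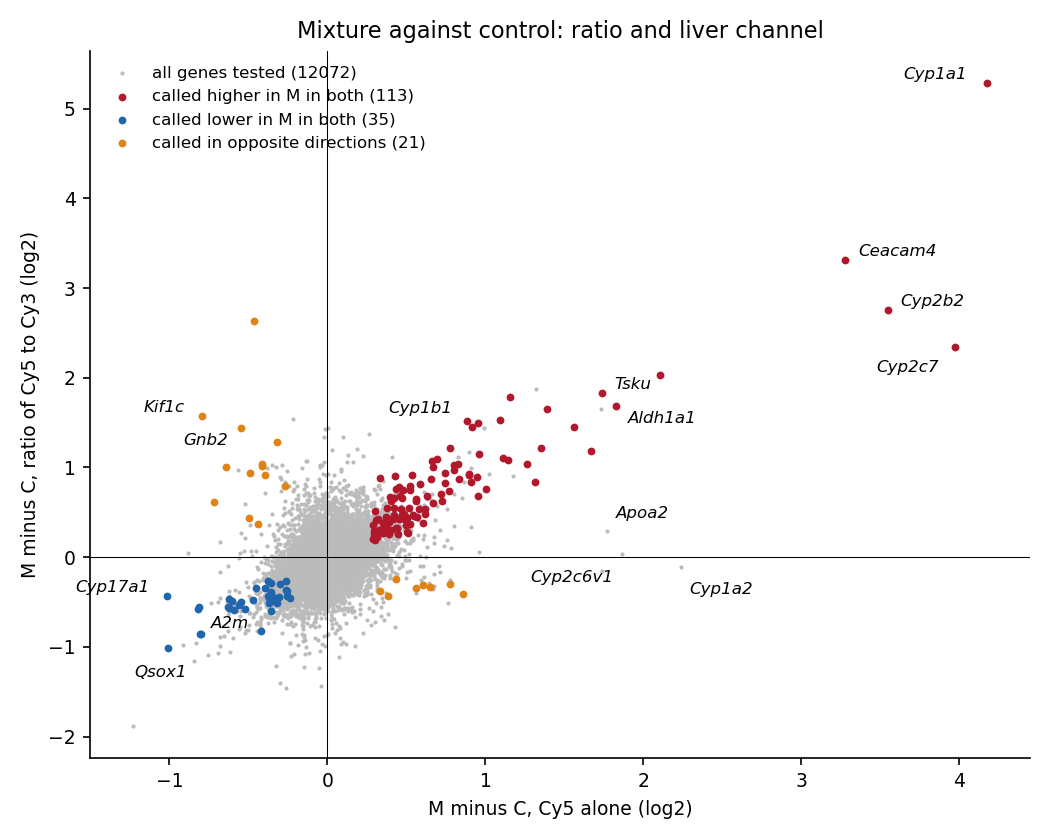
Difference of M and C for 12072 genes, with Cy5 alone on the horizontal axis and the ratio of Cy5 to Cy3 on the vertical axis, both in log2. Red points are the 113 genes called higher in both, blue points the 35 called lower in both, and orange points the 21 called in opposite directions; Cyp1a1 lies at 4.17 and 5.29, while Cyp1a2 lies at 2.24 and -0.11.

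The upstream sequences of 3 AhR target genes that rose in both channels are printed to show where the core of the xenobiotic response element occurs next to their start sites. They are the 250 bases before the RefSeq start of each gene on assembly GRCr8, with the core GCGTG, searched on both strands, in capitals. CACGC is the same motif read from the other strand. The Cyp1b1 stretch lies at chr6:21094315-21094564 on the plus strand, the Nqo1 stretch at chr19:52220268-52220517 on the minus strand, and the Ugt1a6 stretch at chr9:96194768-96195017 on the plus strand.
Cyp1b1: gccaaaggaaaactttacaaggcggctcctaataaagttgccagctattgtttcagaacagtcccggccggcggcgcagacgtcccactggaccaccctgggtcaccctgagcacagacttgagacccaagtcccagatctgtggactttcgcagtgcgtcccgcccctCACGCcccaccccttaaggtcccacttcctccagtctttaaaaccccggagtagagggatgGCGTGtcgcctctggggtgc
Nqo1: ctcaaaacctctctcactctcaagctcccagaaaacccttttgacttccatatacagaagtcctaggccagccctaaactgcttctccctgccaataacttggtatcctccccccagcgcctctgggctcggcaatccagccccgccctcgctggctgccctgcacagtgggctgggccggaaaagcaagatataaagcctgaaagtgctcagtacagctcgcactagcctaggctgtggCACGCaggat
Ugt1a6: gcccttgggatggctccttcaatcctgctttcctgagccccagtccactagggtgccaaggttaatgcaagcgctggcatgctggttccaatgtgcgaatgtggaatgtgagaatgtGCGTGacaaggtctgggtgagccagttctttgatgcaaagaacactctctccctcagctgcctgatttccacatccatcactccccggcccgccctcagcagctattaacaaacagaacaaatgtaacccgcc
The Cyp1b1 stretch held 2 cores, and the Nqo1 and Ugt1a6 stretches 1 each. The core was present in 25.9% of 33469 RefSeq promoters of this length and in 44% of the 6539 tested genes with a promoter. It was present in 20 of the 64 genes higher in both channels that had one (31.2%), a share between those of all promoters and of the tested genes. The core of the antioxidant response element, TGACNNNGC on either strand, was in 9 of the 64 (14.1%) and in 10.1% of all promoters and 12.7% of the tested genes with one. Of the 35 genes lower in both channels, 23 had a promoter, of which 8 held the xenobiotic core (34.8%) and 5 the antioxidant core (21.7%). Both shares were above those of the higher genes. A match in this window is a description of the sequence and shows no binding.

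Cyp1a1, the monooxygenase used as the standard readout of AhR activity, had the largest difference of any gene tested. Its log2 ratios were 0.37, 2.20, 1.70 and 1.24 on C arrays 9 to 12, and 6.76, 6.75, 6.43 and 6.73 on M arrays 5 to 8. The 4 M arrays lay close together and far above all C arrays, and 1 of the C arrays was not well above background. The ratio was 39.1-fold higher in M (95% confidence interval 26.4 to 57.8, limma adjusted p = 3.45e-09). Cy5 alone was 18.1-fold higher, while Cy3 differed by 0.03 log2 units (adjusted p = 0.271). Its Cy3 levels of 6.02 to 6.10 on the 8 arrays were dim, so a steady Cy3 says little here. Cy5 on C 9 was also low, at 6.29, so the size of the fold depends on how dim signals are corrected. Over the alternatives run, the log2 difference ranged from 4.17 to 5.75 and was called in each.

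A further 3 AhR targets rose in both channels. Cyp1b1, a P450 that oxidises estrogens and polycyclic hydrocarbons, had ratios of -0.85, -0.99, -0.78 and -0.81 in C and 0.44, 0.78, 0.62 and 0.81 in M. It was well above background on no C array and on all M arrays, and so was tested only through M. Its Cy5 fold was 1.85 after quantile normalization, with a Cy3 difference of -0.52. A bound from the dimmest well-measured C signals, taken in Cy5 after loess and Aquantile scaling, gave at least 1.92-fold. Of 17 rising genes with such a bound, 13 had a bound above the Cy5 fold, so it holds only for that scaling. Nqo1, a quinone reductase that is also an Nrf2 target, had ratios of -1.06, -1.11, -0.89 and -0.42 in C and -0.07, 0.00, 0.69 and 0.48 in M, and was 2.22-fold higher (1.71 to 2.87, adjusted p = 0.00032). Ugt1a6, which glucuronidates planar phenols and shares its last exons with the other Ugt1a genes, was 2.05-fold higher (1.57 to 2.69, adjusted p = 0.000924), and its second probe rose too, by 1.35 on the log2 scale. The groups of both Nqo1 and Ugt1a6 did not overlap. In all, 4 of 7 tested AhR targets were higher in both channels, against 0.936% of all genes, and 0 were lower. Their median ratio difference was 1.04, against -0.05 over all genes. The tested members that were not called were Cyp1a2, Aldh3a1 and Gsta2. Receptor and partner genes themselves were mostly not called: Ahr was at 0.35 ± 0.13 SE (adjusted p = 0.0705), Nr1i3 (CAR) at 0.35 ± 0.29, Nr1i2 (PXR) at -0.12 ± 0.13 and Nfe2l2 (Nrf2) at 0.16 ± 0.12. Keap1 was the 1 called member of 8, at 0.33 ± 0.085 in the ratio but -0.08 in Cy5, with a Cy3 difference of -0.50.

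Cyp1a2, the liver-restricted AhR target, had the largest Cy5 difference of any gene not called in the ratio. Its Cy5 levels were 12.26, 12.56, 12.76 and 12.80 in C and 14.70, 14.65, 14.97 and 15.03 in M. Its Cy3 levels were 8.30, 8.56, 8.61 and 8.62 in C and 10.99, 10.88, 10.93 and 10.997 in M. Both channels were higher on every M array, so Cy5 alone was 4.72-fold higher (adjusted p = 1.57e-07) and Cy3 alone 5.39-fold higher (adjusted p = 5.27e-12), and the ratio differed by -0.11 ± 0.12 (adjusted p = 0.552). The same held for Cyp2c6v1, a phenobarbital-responsive P450, with Cy5 levels from 13.31 to 13.73 in C and from 15.21 to 15.52 in M, and Cy3 levels from 6.97 to 7.36 in C and from 8.85 to 9.13 in M. Apoa2, an apolipoprotein of high-density lipoprotein, was 3.41-fold higher in Cy5 and 2.85-fold higher in Cy3. Cyp2c6v1 and Apoa2 were chosen after their values were seen. Of 100 genes called in Cy5 but not in the ratio, 98 had a Cy3 call in the same direction. Over all genes, 66.2% were called in Cy3, in either direction. Because the ratio is Cy5 over Cy3, choosing genes in this way largely set that count. Among the C arrays, Cy5 and Cy3 of Cyp1a2 rose in the same order, from C 9 to C 12, while among the M arrays the orders differed. What moved the 2 channels of Cyp1a2 together was not tested, and mixture and slide cannot be told apart.

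**Figure D2:**
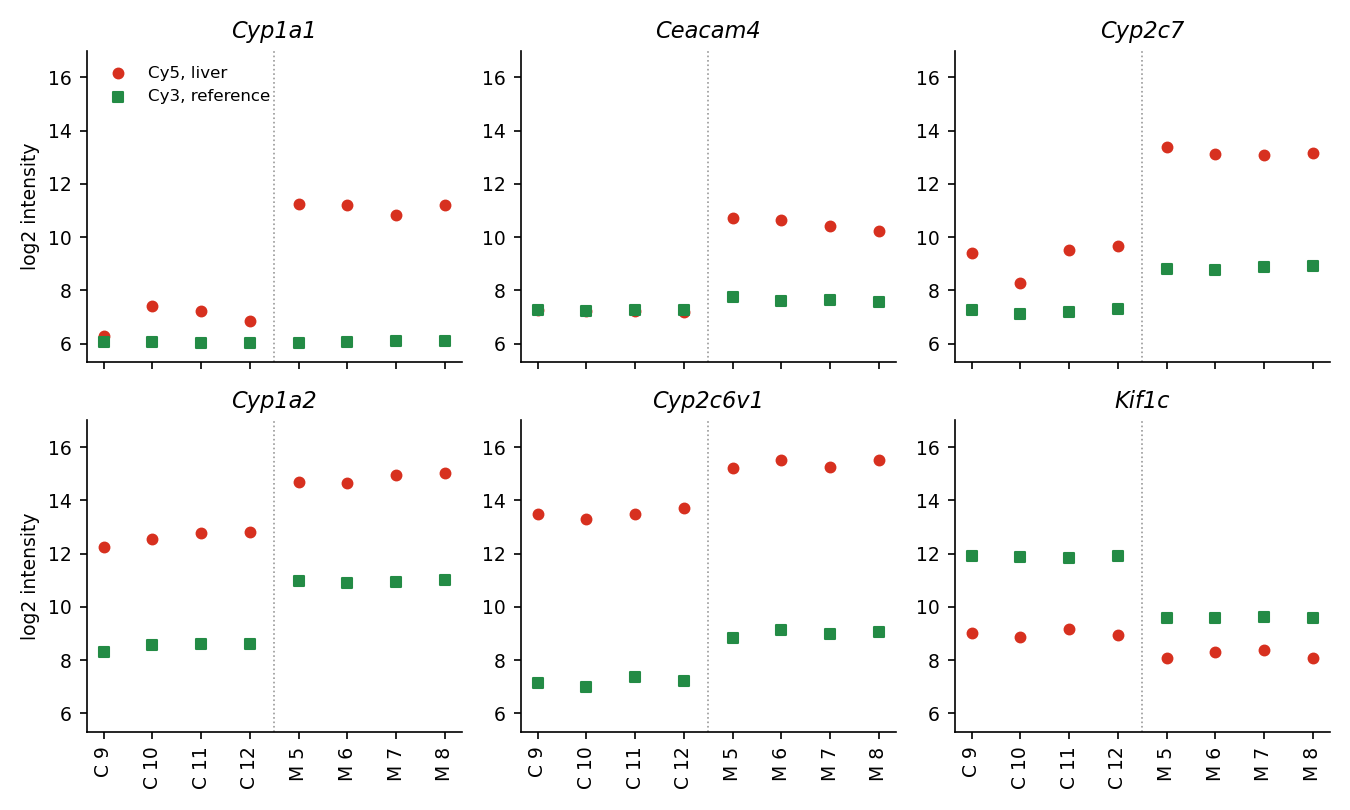
Normalised log2 intensity of Cy5 (liver, circles) and Cy3 (reference, squares) on each C and M array for 6 genes, with the dotted line between the slides. Cyp1a1 moved in Cy5 alone, Ceacam4 and Cyp2c7 moved mainly in Cy5, Cyp1a2 and Cyp2c6v1 moved in both channels by similar amounts, and Kif1c was lower in both on the M slide, more so in Cy3.

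Targets of CAR and PXR included the next largest rises among the lists. Of 14 tested members, 9 were higher in the ratio, 8 of them also in Cy5, and 0 were lower. Over all genes, 8.19% were higher in the ratio and 0.936% in both channels. The median difference of the list was 0.91. Cyp2b2, the phenobarbital-inducible P450 that marks CAR activity in rat liver, had ratios of 5.53, 4.88, 5.65 and 4.92 in C and 7.86, 7.98, 8.34 and 7.85 in M. No M array overlapped the C arrays, and the ratio was 6.76-fold higher (5.01 to 9.12, adjusted p = 4.3e-07). With the scanner software's ratio the log2 difference of Cyp2b2 was 1.01 in place of 2.76, still called. Its second probe gave a smaller log2 difference of 1.68, and its Cy3 signal was higher on the M slide by 0.84. Cyp2c7, a retinoic acid hydroxylase, had ratios of 3.73, 2.61, 3.804 and 3.92 in C and 6.07, 5.87, 5.73 and 5.77 in M. That is 5.08-fold (3.41 to 7.56, adjusted p = 2.44e-05), beside a Cy3 difference of 1.63. All 3 of its probes rose in the ratio, by 2.34, 3.25 and 3.90, and with the software's ratio Cyp2c7 was at 1.40, still called.

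Cyp2a3, a P450 known mainly from the respiratory tract, had ratios of 0.36, 0.42, 0.65 and 0.30 in C, where it was well above background on no array. In M it was at 1.73, 1.57, 2.97 and 2.62 and well above background on all 4 arrays, so it too was tested only through M. Its Cy5 fold was 2.23. The liver-expressed relative Cyp2a1 was at 0.06 ± 0.16 in the ratio and at 0.96 in both Cy5 and Cy3. Of the Cyp3a genes, Cyp3a62 was 2.33-fold higher (1.5996 to 3.40, adjusted p = 0.00342). Cyp3a23-3a1, a main PXR target, had ratios of 7.28 to 7.76 in C and 8.20 to 8.51 in M and was 1.85-fold higher (1.43 to 2.40, adjusted p = 0.00212), but with the scanner software's own ratio it was at -0.66 without a call. Cyp3a2 and Cyp3a18 were at 0.01 ± 0.21 and -0.47 ± 0.34, without a call. Members of these families are close in sequence, and signal shared between them was not tested.

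Ephx1, Aldh1a1 and Alas1 were the other members of the CAR and PXR list called higher in both channels. Ephx1, the microsomal epoxide hydrolase, had ratios of 2.41, 2.64, 2.91 and 3.08 in C and 4.61, 4.73, 4.48 and 3.82 in M, and was 3.15-fold higher (2.45 to 4.04, adjusted p = 9.35e-06). Aldh1a1, which makes retinoic acid from retinal, ranged from 3.24 to 4.64 in C and from 5.35 to 5.87 in M, and was 3.22-fold higher (2.18 to 4.75, adjusted p = 0.000382). Alas1, which starts heme synthesis and so supplies the P450s, was 1.90-fold higher (adjusted p = 0.0101), but its C values of 3.82 to 4.92 and its M values of 4.88 to 5.67 overlapped, and its call in both channels held in 2 of 8 fits that left out 1 array. Cyb5a, the cytochrome that donates electrons to P450s, was at 4.31 to 4.54 in C and 5.00 to 5.14 in M, 1.601-fold higher (adjusted p = 1.31e-05). The P450 reductase Por had a ratio difference of 0.85 ± 0.15 (adjusted p = 0.000921), a Cy5 difference of 0.35 without a call, and a Cy3 difference of -0.47. Of 10 heme synthesis and breakdown genes, 4 were higher in the ratio, against 8.19% of all genes, but only Alas1 also in Cy5. The heme oxygenase gene Hmox1 was at 0.50 in the ratio, -0.10 in Cy5 and -0.61 in Cy3.

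Ceacam4, a cell surface glycoprotein gene of the carcinoembryonic antigen family and not a known xenobiotic enzyme, had the second largest rise. Its ratios were 1.26, 1.27, 1.099 and 1.12 in C and 4.56, 4.65, 4.49 and 4.29 in M. The spread within each group was small beside the gap between them, and the ratio was 9.92-fold higher (8.35 to 11.8, adjusted p = 2.8e-11). Tsku, which encodes the secreted liver protein tsukushi, was at 2.48, 2.95, 3.43 and 2.09 in C and at 4.58, 4.76, 4.30 and 4.62 in M, 3.55-fold higher (2.43 to 5.20, adjusted p = 0.000159). Cyp2c11, the male-specific steroid hydroxylase that is low before puberty, ranged from 0.08 to 0.78 in C and from 1.05 to 1.83 in M. It was well above background on 1 C array and 4 M arrays, so it was tested only through M and has no reliable C level. The measured difference was 1.09 in the ratio and 0.69 in Cy5. Cyp17a1, a steroid hydroxylase of the androgen pathway, went the other way. Its ratios were 6.30, 6.23, 5.91 and 6.17 in C and 5.86, 5.58, 5.66 and 5.78 in M, 1.35-fold lower (adjusted p = 0.015), beside log2 differences of -1.01 in Cy5 and -0.43 in Cy3. Among identifiers that the naming table did not hold, NM_017272 had the largest difference of those called in both channels, at 2.03, and NM_147136 the lowest, at -0.82.

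**Figure D3:**
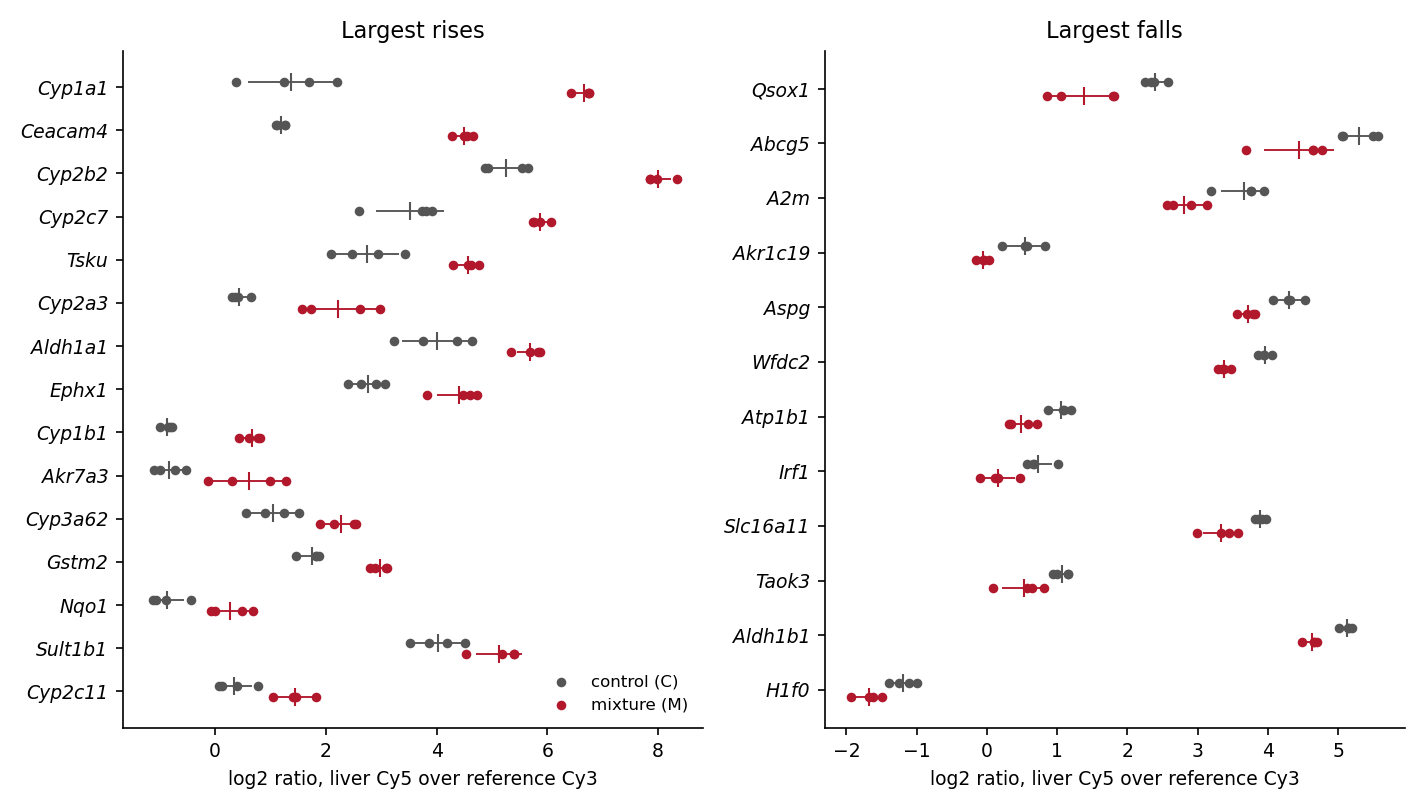
Log2 ratio of liver Cy5 to reference Cy3 on each of the 4 C arrays (grey) and 4 M arrays (red), for the 15 largest rises and 12 largest falls called in both channels with no overlap between groups. Vertical ticks are group means and bars are SD; Cyp1a1 spans 0.37 to 2.20 in C and 6.43 to 6.76 in M.

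Some conjugating enzymes were higher in both channels, by at most 2.33-fold. Of 20 glutathione transferases tested, 10 were higher in the ratio and 1 was lower, and 9 were higher in both channels. Over all genes, 8.19% were higher in the ratio and 0.936% in both. The median difference of the list was 0.31. Gstm2, a mu-class transferase, led with ratios of 1.82, 1.89, 1.47 and 1.83 in C and 3.11, 2.90, 2.79 and 3.09 in M, 2.33-fold higher (1.90 to 2.86, adjusted p = 2.26e-05). Gstm1, the main mu-class liver enzyme, ranged from 3.47 to 3.999 in C and from 4.35 to 4.76 in M and was 1.69-fold higher (adjusted p = 0.00112). The alpha-class genes Gsta1, Gsta3, Gsta4 and Gsta5 were higher by 0.74, 0.87, 0.44 and 0.84, and Gstt1 by 0.36. The call of Gstt1 in both channels held in 3 of 8 fits that left out 1 array. Gstm4 was higher by 0.78, and its second probe by 0.63, though its call in both channels held in 2 of 8 fits that left out 1 array. Gstm3 was well above background on no C array and so tested only through M, with a Cy5 fold of 1.32. The pi-class gene Gstp1 was at 0.29 ± 0.17 without a call. Gstz1 was lower in the ratio at -0.38 but at -0.04 in Cy5. Those called in both channels were of the alpha, mu and theta classes. Whether classes differ was not tested.

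Of 15 glucuronosyl- and sulfotransferase genes, 4 were higher in both channels, against 0.936% of all genes, and 1 was lower in the ratio alone. Ugt2b1, a steroid and phenol glucuronosyltransferase, ranged from 6.88 to 7.48 in C and from 7.87 to 8.54 in M, 2.06-fold higher (1.52 to 2.79, adjusted p = 0.00214). With the software's ratio Ugt2b1 was at 0.39 and not called (adjusted p = 0.114). Sult1b1, a sulfotransferase of thyroid hormones and phenols, was 2.15-fold higher (1.49 to 3.11, adjusted p = 0.00575), and both its probes rose, by 1.08 and 1.104. In the cross-fostered pups Sult1b1 was at 0.27, an interaction of 0.83 ± 0.36 that was not called, and its call in both channels in M held in 2 of 8 fits that left out 1 array. Ugdh, which makes the glucuronic acid donor, was 1.39-fold higher (adjusted p = 0.00189). Bpnt1, a phosphatase that clears the by-product of sulfation, was at 0.13 to 0.41 in C and 0.85 to 0.98 in M (adjusted p = 2.03e-05). Among 17 hepatic transporters, the export pumps Abcc2 and Abcc3 were higher in both channels and the sterol transporter Abcg5 lower. Over all genes the shares were 0.936% and 0.29%. Abcc3, the pump to blood, was well above background on no C array and so tested only through M, with a Cy5 fold of 1.35 and a Cy3 difference of -0.21. Abcc2, the pump to bile, was 1.29-fold higher (1.09 to 1.52, adjusted p = 0.0288) and lost its ratio call when any of C 9, C 10, C 11, M 6 or M 7 was left out, with differences of 0.29 to 0.43 over the 8 fits that left out 1 array.

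Carboxylesterases, which split ester drugs and lipids, were looked at after their values were seen. Of 10 tested genes with names in Ces, 4 were higher in both channels, against 0.936% of all genes, and 0 were lower, with a median of 0.50. As the family was picked for its values, this count is a description and tests nothing. Ces2j had ratios of 2.44, 2.61, 2.31 and 2.76 in C and 3.58, 3.74, 3.79 and 3.14 in M (2.04-fold, adjusted p = 0.00144), and Ces1f 3.52, 3.92, 3.88 and 4.01 in C and 4.54, 4.72, 4.81 and 4.60 in M (1.78-fold, adjusted p = 8.34e-05). In neither gene did the groups overlap. Ces2c and Ces2h were weak in C, well above background on 1 and 0 C arrays, and so were tested only through M. The call of Ces2c in both channels held in 1 of 8 fits that left out 1 array.

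Nrf2 targets divided by channel. Of 20 tested, 8 were higher and 1 lower in the ratio, but only 4 were higher in both, against a background of 8.19% higher in the ratio and 0.936% in both. The 4 were Nqo1, Ephx1, Akr7a3 and Srxn1. Akr7a3, an aldehyde reductase for aflatoxin, had ratios of -1.11, -0.73, -1.002 and -0.52 in C and 0.99, 1.27, 0.31 and -0.13 in M, 2.73-fold higher (1.85 to 4.03, adjusted p = 0.00127). M 7 and M 8, both of array row 2, were its lower M values, and in that row alone it was at 0.85 and not called (adjusted p = 0.0687). Srxn1, the sulfiredoxin that repairs peroxiredoxins, ranged from -0.78 to -0.61 in C and from -0.14 to 0.15 in M (1.68-fold, adjusted p = 2.88e-05), and its call in both channels held in 4 of 8 fits that left out 1 array. The 4 members higher in the ratio alone were Gsr, Hmox1, Sqstm1 and Txnrd1. Their Cy5 differences were 0.20, -0.10, 0.20 and 0.15, and their Cy3 differences -0.64, -0.61, -0.56 and -0.17. The glutathione synthesis gene Gclc was at 0.26 ± 0.13 without a call. Outside that list, the redox genes Txn1 (thioredoxin) and Glrx (glutaredoxin) were higher in both channels by 0.27 each, and were chosen after their values were seen. Each held that call in 2 of 8 fits that left out 1 array.

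**Figure D4:**
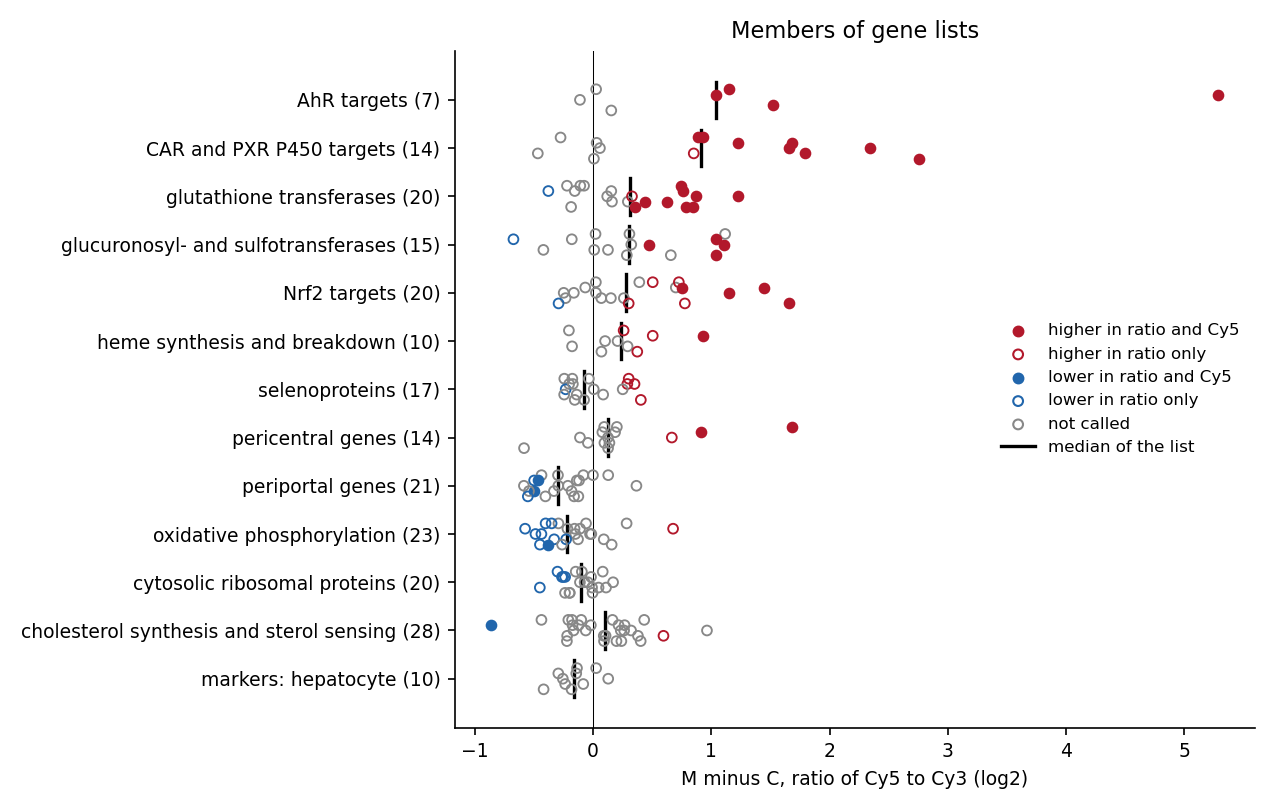
Difference of M and C in the ratio (log2) for each tested member of 13 gene lists, with the number of members in brackets. Filled points were called in the ratio and in Cy5 alone, open red (higher) or blue (lower) points in the ratio alone, grey points not in the ratio, and the black bar is the list's median; AhR targets have a median of 1.04 and periportal genes one of -0.29.

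Selenoproteins and metal handling genes were listed because methylmercury was part of the mixture. With 1.23% of all genes called in both channels, lists of this size would often hold none. In the ratio, 8.19% of all genes were higher and 12.3% lower. Of 17 selenoprotein genes, which carry selenocysteine that mercury binds, 4 were higher and 1 lower in the ratio and 0 were called in both channels. Selenop, the plasma selenium carrier, was at -0.18 ± 0.18, Gpx1 at -0.20 ± 0.12 and the thyroid deiodinase Dio1 at -0.24 ± 0.13, none of them called. Txnrd1, the thioredoxin reductase, was 1.23-fold higher in the ratio (1.07 to 1.42, adjusted p = 0.0359), at 0.15 in Cy5, and lost its call when C 9, C 11, M 5, M 6 or M 7 was left out. The metallothionein genes Mt1 and Mt2A, which bind heavy metals, varied widely between arrays, from 4.21 to 5.78 and from 2.40 to 4.99 in C and from 3.90 to 5.02 and from 2.44 to 3.94 in M. The differences were -0.44 ± 0.37 and -0.44 ± 0.45, smaller than the range within C. Of 11 metallothionein and metal handling genes, the zinc transporter gene Slc39a14 alone was lower in the ratio, at -0.36.

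Genes that fell in both channels were fewer and changed less, with a median of -0.48 and 1 of 35 at least 2-fold. Qsox1, a secreted sulfhydryl oxidase, had ratios of 2.37, 2.25, 2.58 and 2.34 in C and 0.85, 1.80, 1.80 and 1.05 in M, 2.02-fold lower (1.45 to 2.80, adjusted p = 0.00468), yet its second probe was at -0.15. A2m, the acute phase protease inhibitor, had 3.19, 3.77, 3.76 and 3.94 in C and 2.56, 3.13, 2.91 and 2.65 in M, 1.81-fold lower (1.37 to 2.39, adjusted p = 0.00476), and its second probe was at -0.92. Abcg5, which exports plant sterols and cholesterol, was at 5.06 to 5.57 in C and 3.69 to 4.77 in M, 1.81-fold lower (1.24 to 2.67, adjusted p = 0.0287). Its ratio call was lost without C 10, C 12 or M 5, its call in both channels held in 3 of the 8 fits that left out 1 array, and its difference ranged from -0.97 to -0.61 over those fits. Wfdc2, a secreted protease inhibitor gene, was 1.496-fold lower (adjusted p = 0.0216) and lost its ratio call without C 12 or M 6. Irf1, the interferon regulatory factor, was at 0.57 to 1.01 in C and -0.09 to 0.47 in M, 1.48-fold lower (adjusted p = 0.00544), and was the only one of 20 interferon response genes called in both channels. Smaller falls called in both channels included Akr1c19, Aspg, Atp1b1, Slc16a11, Taok3 and H1f0, at -0.60, -0.59, -0.57, -0.56, -0.54 and -0.49. With each array left out in turn, calls in both channels held in 1 of 8 fits for Taok3, in 2 for Wfdc2, in 3 for A2m, Qsox1, Atp1b1 and Akr1c19, and in 5 for Aspg and Irf1.

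Periportal genes, expressed near the portal vein and mostly of amino acid and urea metabolism, had a negative median in both channels. Of 21, 4 were lower in the ratio, 2 of them in both, and 0 higher. For comparison, 12.3% of all genes were lower in the ratio, 0.29% lower in both channels and 8.19% higher in the ratio. Whether the periportal counts differ from these shares was not tested. The median of the list was -0.29 in the ratio and -0.29 in Cy5, against -0.05 and -0.01 over all genes. Aldh1b1, a mitochondrial aldehyde dehydrogenase, had ratios of 5.14, 5.02, 5.19 and 5.16 in C and 4.66, 4.49, 4.66 and 4.71 in M (1.42-fold lower, adjusted p = 0.00122). Gls2, the liver glutaminase, had 4.04, 3.72, 3.63 and 3.77 in C and 3.42, 3.12, 3.30 and 3.43 in M (1.38-fold lower, adjusted p = 0.0149) and lost its ratio call without C 9 or M 6. The urea cycle genes Cps1, Ass1, Asl, Arg1 and Otc were at -0.18, -0.14, -0.44, -0.40 and -0.12, none of them called. Of 14 pericentral genes, expressed near the central vein, 3 were higher in the ratio (21.4%, against 8.19% of all genes). In both channels 2 were higher, against 0.936% of all genes, namely Aldh1a1 and the ammonium transporter Rhbg. Rhbg was at 2.67 to 2.89 in C and 3.65 to 3.79 in M, 1.89-fold higher (1.57 to 2.27, adjusted p = 0.000121). Glul, the pericentral glutamine synthetase, was at 0.08 ± 0.14 and the bile acid synthesis enzyme Cyp7a1 at 0.20 ± 0.17, without a call. The difference between the lists was not tested. In bile acid synthesis, Akr1c14, a hydroxysteroid dehydrogenase, was 1.46-fold higher (adjusted p = 0.00169) and the only one of 14 called in both channels, a call that held in 2 of 8 fits that left out 1 array.

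Each list of energy and lipid metabolism held at most 1 gene called in both channels, beside 0.936% of all genes higher and 0.29% lower. In the ratio those shares were 8.19% and 12.3%. Of 23 oxidative phosphorylation genes, 9 were lower and 1 higher in the ratio, with a median of -0.22, but the median in Cy5 was -0.03 and only Ndufa1, a complex I subunit gene, was lower in both, by 1.30-fold in the ratio (1.18 to 1.43, adjusted p = 0.000884), a call in both channels that held in 2 of 8 fits that left out 1 array. Of 20 cytosolic ribosomal protein genes 5 were lower in the ratio and 0 in both, with a median of -0.10 in the ratio and -0.02 in Cy5. Pklr, the liver pyruvate kinase, was at 3.72 to 4.02 in C and 3.13 to 3.47 in M, 1.39-fold lower (adjusted p = 0.00646). Of 28 fatty acid oxidation genes 0 were called in both, and Cpt1a, the gate of mitochondrial fatty acid import, was at 0.35 ± 0.21. Of 28 cholesterol synthesis and sterol sensing genes only Abcg5 was called in both. The mean ratio of that list was 0.39 on C 9 against 1.61 to 2.14 on the other C arrays and 1.4 to 1.95 on the M arrays, so the spread within C exceeded the difference between groups. Igf1, the growth factor of the growth hormone axis, was 1.28-fold lower in the ratio (1.098 to 1.49, adjusted p = 0.0238), while its Cy5 difference was -0.01. It lost its call without C 11, M 5 or M 7. The fetal liver gene Afp was at -0.13 ± 0.29. Tiparp and Srebf1 had no probe under the naming table used, and Ahrr was too dim to be tested.

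In stress, damage and cell cycle lists, as over the whole array where 93.2% of ratio calls were not called in Cy5, the ratio calls were not shared by Cy5. Over all genes, 8.19% were higher and 12.3% lower in the ratio. Of 17 p53 and DNA damage genes, 2 were higher and 3 lower in the ratio and 0 were called in both channels. Bax, which promotes apoptosis, had a ratio difference of -0.97, a Cy5 difference of 0.12 and a Cy3 difference of 1.18. Gadd45a, a growth arrest gene, was at 0.71, 0.17 and -0.53 in that order. Of 23 genes of endoplasmic reticulum stress, 4 were higher and 1 lower in the ratio, and 0 in both. The disulfide isomerases Pdia3 and Pdia6 were at 0.49 and 0.54 in the ratio and at 0.10 and 0.18 in Cy5. Of 22 proliferation genes 2 were higher and 1 lower in the ratio, of 13 heat shock genes 1 and 1, and in neither list was a gene called in both. Gdf15, a stress-induced hepatokine, was at 0.58 in the ratio, -0.19 in Cy5 and -0.79 in Cy3. Of 14 glucocorticoid response genes and 7 of ketone body metabolism, 0 were called in the ratio. Of 34 acute phase, coagulation and complement genes only A2m was called. The apolipoprotein gene Apoc2, the activator of lipoprotein lipase, was at -1.05 in the ratio, -0.04 in Cy5 and 0.95 in Cy3. In each of Bax, Gadd45a, Gdf15 and Apoc2, the Cy3 difference was larger than the Cy5 difference and opposite in sign to that of the ratio.

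Of 68 tested markers of other cells, 0 were called in both channels, where 1.23% of all genes were. By that count the lists are too small to set apart from the rest. The 8 lists were for Kupffer cells and leukocytes, endothelium, stellate cells and fibroblasts, bile duct, red cells, exocrine pancreas, skeletal muscle and fat. Over these lists, 2 members were called in the ratio, where 8.19% of all genes were called higher and 12.3% lower. Muscle markers Acta1, Ckm and Myh1 and pancreatic Pnlip were well above background on none of the 8 arrays. The mean Cy5 level of the 6 tested fat markers lay between 8.51 and 8.98 on the C arrays and between 8.46 and 8.47 on the M arrays, so every M array was lower, and of the 10 fat markers listed, 6 were well above background on all 8 arrays and Lep and Lipe on none. The mean Cy5 level of the 5 tested pancreas markers lay between 6.74 and 7.08 in C and between 6.74 and 8.16 in M. Their part in the results above was not tested. For Kupffer cells and leukocytes, endothelium, stellate cells, bile duct, red cells and muscle, the Cy5 ranges of C and M overlapped. Of 10 hepatocyte markers 0 were called, and their median difference was -0.16 in the ratio and 0.03 in Cy5.

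The share of genes called in the ratio rose with the shift of the reference channel. It was 7.99% where Cy3 differed by at most 0.1 on the log2 scale, 14.5% from 0.1 to 0.25, 36.1% from 0.25 to 0.5, 68.3% from 0.5 to 1 and 88.5% above 1. The share called in both channels stayed between 0.77% and 1.61%. Across genes the ratio difference had a correlation of -0.63 with the Cy3 difference, and the Cy5 difference one of 0.30, where the values share the spots and genes are not independent replicates. For 965 genes with more than 1 kept probe, the differences of 2 probes had a correlation of 0.73 in Cy5, 0.49 in the ratio and 0.30 in Cy3. The arrays also carry control spots for 10 spike-in transcripts. Their ratio was lower on the M arrays for all 10, by a median difference of -0.27 (from -0.46 to -0.06), and for 7 of them the groups did not overlap, while their Cy5 differed by between -0.09 and 0.05 and their Cy3 was higher by 0.07 to 0.60. Opposite calls in the ratio and in Cy5 were made for 21 genes. The largest with a symbol, the kinesin gene Kif1c, had ratios of -1.36, -1.46, -1.18 and -1.46 in C and 0.08, 0.35, 0.32 and 0.09 in M, with Cy5 at -0.79 and Cy3 at -2.30. Gnb2, Marf1, Tle5 and Akt1 were higher in the ratio by 1.44, 1.01, 0.92 and 0.80 and lower in Cy5, at -0.55, -0.41, -0.40 and -0.27. For such genes a direction of the liver transcript cannot be given.

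**Figure D5:**
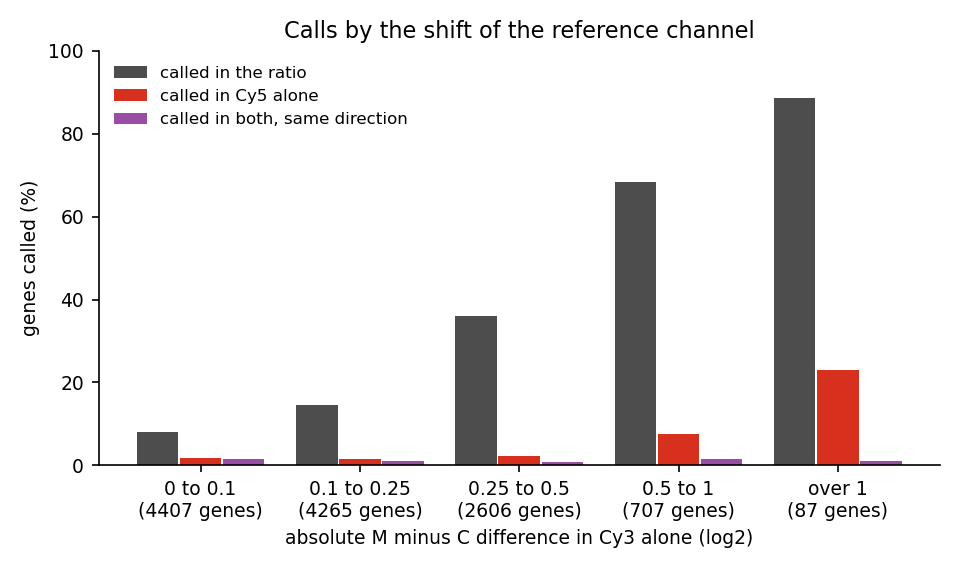
Percent of genes called between M and C in the ratio, in Cy5 alone and in both in the same direction (bars), for genes grouped by the absolute difference of their Cy3 signal on the log2 scale. Ratio calls run from 7.99% in the group with the smallest Cy3 shift to 88.5% in the group with the largest, and calls in both stay at or under 1.61%.

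The same contrast in cross-fostered pups, MM against CC, used other animals on the same slides. A test of the difference between the contrasts called 0% of genes in the ratio with limma (0 of 12072, smallest adjusted p = 0.9995), and 348 had an unadjusted p below 0.05. Of the 113 genes higher in both channels in M, 112 had the same sign in MM minus CC, and of the 35 lower ones 34. The share of all genes with the same sign in the 2 contrasts is not given here. Called in both channels there too were 74 and 7. Over all 12072 genes, 153 were called in both channels in MM against CC. Cyp1a1 differed by 5.33 in the cross-fostered pups, Ceacam4 by 3.18, Cyp2b2 by 2.17 and Cyp2c7 by 2.72. Among the falls, Qsox1 was at -1.15, A2m at -0.89 and Abcg5 at -0.96, while Irf1 was at -0.11 and Taok3 at 0.07. The interaction of Irf1 was -0.45 ± 0.18 and that of Taok3 -0.61 ± 0.20, neither called. MM and CC shared the slides of M and C, so this agreement in sign does not tell slide from mixture apart. Within a slide, CC against C and MM against M each gave 0 calls in the ratio (336 and 275 genes at an unadjusted p below 0.05).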

How the data were processed

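The series holds 16 dual-colour arrays on 2 slides. The deposited scanner files, made with Agilent Feature Extraction 11.0.1.1 per the file headers, give median spot and background intensity in both channels and a log10 ratio computed by that software. The deposited series table holds log2 ratios for 30367 probes. Its normalization is not given in the sources used here, and its correlation with the ratios computed here was 0.996 to 0.997.

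Of 62976 spots, 4259 were controls. Background was corrected by normexp (offset 50), spots marked as outliers were dropped, ratios were normalised by loess with controls at weight 0, and spots of a probe were averaged. Probes well above background in Cy5 on 3 of the 4 arrays of a group were kept (13262). RefSeq accessions gave 18005 of 30367 probes a GRCr8 symbol, others kept their identifier, and the brightest probe stood for a gene. Cy5 and Cy3 alone were quantile-normalised. Tests were two-sided limma fits (R 4.3.3, limma 3.58.1) on all 16 arrays with 1 mean per group, contrast M minus C, with Benjamini-Hochberg adjustment over 12072 genes at 0.05. Where a probe was well above background on no array of a group, a bound was taken in Cy5 after loess and Aquantile scaling from the dimmest well-measured signal on each array. The pipeline was tested on simulated data. The number of arrays limits precision.

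The comparison, the 44 gene lists and the naming rule were set with earlier results of these data known. Genes were named if among the top 15 rises or 12 falls called in both channels without overlap between groups, among up to 4 members per list called in both, among 25 sentinels (1 is not reported here), or among 5 called in opposite directions. List members outside the rule, Cyb5a, Bpnt1 and genes said to be so in the text were added after their values were seen. Alternatives were other background corrections, scalings, filters and probe rules, the software's ratio, the series table, array row, and leaving out each array.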

Additional observations from a re-analysis of the deposited data

Results flagged for a closer look

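For the genes named above, 130 groups of 4 arrays were examined for a single array standing away from the other 3, and 5 were found, where chance alone gives about 1 in 20. The log2 ratio of Abcg5 was 3.69 on M 5, against 4.65 to 4.77 on the other M arrays. Cyp1a1 was at 6.43 on M 7, against 6.73 to 6.76, a gap that is small beside its difference from C. Cyp2c7 was at 2.61 on C 10, against 3.73 to 3.92. Gstm2 was at 1.47 on C 11, against 1.82 to 1.89. Nr1i3, the gene of CAR, was at 4.51 on C 9, against 3.61 to 3.66.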

How the results depend on the processing

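No paired analysis was possible because the C arrays are numbered 9 to 12 and the M arrays 5 to 8 and share no replicate number. Against 2470 calls in the ratio, the scanner software's ratio gave 4364, array row 1 alone 849, row 2 alone 708 and Cy5 alone 269, and leaving out 1 array gave 1919 to 2162. With the software's ratio the median of all genes lay at -0.10. Aquantile scaling leaves ratios unchanged by construction. Against 269 calls in Cy5, median centring gave 79 (87.3% higher, against 72.9%), the 8 arrays of C and M alone 178, array row as a term 549, and leaving out 1 array 155 to 246 (155 without C 9, 162 without M 5, 167 without M 6). In Cy3, median centring turned the share higher from 57.1% to 76.7%. Calls higher and lower in both channels, 113 and 35, became 49 and 3 with Aquantile and median centring, 90 and 21 on 8 arrays, 186 and 109 with array row as a term, 57 and 6 at an adjusted p of 0.01, and 74 to 109 and 12 to 33 with 1 array left out (settings chosen after the data were seen). Without background correction the counts were 113 and 42. Of the 113 genes reported, 41 held in all 13 of these settings, among them Cyp1a1, Ceacam4, Cyp2b2, Cyp2c7, Ephx1, Gstm2 and Nqo1. Of the 35, Aldh1b1 and NM_147136 did. The interaction stayed at 0 calls in every setting run.

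Signs turned in Cy5 alone for Cyp1a2 (2.24), Afp (0.18), Mt1 (0.037), Kif1c (-0.79), Gnb2 (-0.55), Marf1 (-0.41), Tle5 (-0.40) and Akt1 (-0.27). With the software's ratio they turned for Cyp3a23-3a1 (-0.66, uncalled), Glul (-0.0147) and Nr1i3 (-0.0096), and in row 1 for Cpt1a (-0.33), Glul (-0.091) and Nr1i3 (-0.0526). In row 2 they turned for Afp (0.075), Dio1 (0.021), Mt1 (0.13), Mt2A (0.40) and Selenop (0.0259). With 1 array left out, Glul ranged from -0.027 to 0.1545, below 0 without C 11 or M 8. Of these, Cyp3a23-3a1, Kif1c, Gnb2, Marf1, Tle5 and Akt1 were called in the ratio as reported. The cause was not tested. With 1 array left out, no called ratio of a named gene reversed, and 6 of 51 lost the ratio call at least once. Of 44 named genes called in both channels, 27 held that call in all 8 such fits and 13 in fewer than 4.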
